A study of Mus musculus with 24 samples.

Results

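Late relapse KP tumours were compared with Parental KP tumours across 36040 genes, using 6 of the 24 samples of the series (3 of each group) and every gene of the KP table. KP is a genetically engineered mouse model of lung cancer whose alleles include p53 flox/flox, and all KP groups share its genotype. Mice were injected with tumour cells, and on day 15 live CD45-negative cells were sorted from the tumours after red cell lysis, so the samples hold cancer cells and any host cells without CD45. The series also held 1st relapse KP, 2nd relapse KP and Chronic IFNG KP tumours (3 samples each), used here to place the late relapse values, and 9 samples of a second lung cancer line that were not used. Late relapse, 1st relapse and 2nd relapse KP lines came from tumours that had grown back after immune checkpoint blockade, Chronic IFNG KP cells had been exposed to low-level interferon gamma, and Parental KP cells are the starting line. The labels give no further treatment of the injected mice. They say neither what separates late relapse from the other relapses, nor whether a line is 1 clone, nor whether replicates came from separate animals, so p-values measure the spread between these samples. They also do not say whether more than 1 relapsed tumour stands behind a group, so what relapse has in common and what belongs to a single tumour cannot be told apart.

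As background, tumours of this model begin in the lung epithelium, and such cells can lose the lung program and switch on genes of other organs that derive from the foregut, among them stomach, intestine and liver. Hnf4a is a transcription factor of the gut and liver, Nkx2-1 is the regulator of lung identity, and type IV collagen is the network-forming protein of basement membranes. Relapse after checkpoint blockade is often studied through interferon signalling, since interferon gamma from T cells raises antigen presentation on tumour cells.

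Values are normalised counts calculated back from the deposited log2 values, and differences are log2 differences of the deposited values, late relapse minus parental, ± SE, which are compressed at low counts. A gene was kept when the mean of at least 1 KP group was 1 log2 unit above the lowest value of the table, about 144.2 counts, and called when limma gave a Benjamini-Hochberg adjusted p below 0.05. Estimated depth was 13.7 to 32.7 M fragments per KP library (M, 1000000) and 22671 to 30700 genes were detected. Of 11193 kept genes, 6365 were called (56.9%), 3468 higher (31.0%) and 2897 lower (25.9%) in late relapse tumours. Among the called genes 6105 did not overlap between the groups, which is read from the same values as the calls and adds no separate support. The split turned under 2 other scalings, with 2873 higher and 3557 lower under quantile normalisation (44.7% higher, against 54.5%) and 3067 higher and 3418 lower under median centring (47.3%). Large differences were mostly upward, as 246 called genes were higher and 56 lower by 1 log2 unit or more. Because more than every second kept gene was called, counts in a gene list are read against 31.0% and 25.9%, and the median log2 difference of a list against 0.01 over all kept genes.

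Markers were used to check the sort and the label. Krt8, a keratin of simple epithelium, stood at 55232, 53849.9 and 55827 counts in late relapse tumours, against 47702, 47941 and 46301 in parental tumours. Ptprc, which encodes CD45, stood at 49.6, 35 and 29 counts, against 43, 219 and 51 in parental tumours, where 1 sample was higher than the rest. No member of the T and NK cell, B cell, neutrophil or skin, muscle and fat lists was kept. The lung regulator Nkx2-1 was near 0 in both groups, at 8.3, 5.4 and 10.3 counts against 8.0, 5.4 and 3.0, so the lung label rests on the model and not on this marker. Trp53, which encodes p53, stood at 149.9, 147 and 137 counts, against 161, 147 and 193 in parental tumours, and was not called (log2 difference -0.07), but it was called lower under quantile normalisation (-0.16) and with chromosome medians taken off (-0.21). A count over the whole gene does not show the allele.

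Late relapse KP sample 3 stood apart in matrix genes of fibroblasts. Col1a2, a chain of type I collagen, had 3728, 4080.3 and 13125 counts in late relapse tumours, against 2516, 2796 and 4077 in parental tumours. Postn, a matrix protein of fibroblasts, had 952, 1064 and 3648 counts, against 638, 580.4 and 964 in parental tumours. Samples 1 and 2 of late relapse lay within or close to the parental range in Col1a2, and sample 3 lay far above both groups. The summed level of the 14 fibroblast markers ranged over 2036 to 4307 CPM (normalised counts scaled to a library total of 1000000) in late relapse tumours and 2652 to 3131 in parental tumours. Counts over lists of matrix genes are therefore given with and without this sample. In these bulk samples fewer cells of a type and less RNA per cell cannot be told apart.

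Genes known from intestine and liver stood first among the rises. Apob, the large structural protein of lipoproteins made by liver and intestine (chr12:7977648-8016835, plus strand), had 13399, 13512 and 17355 counts in late relapse tumours, against 282, 172 and 125 in parental tumours. The groups lay far apart, with a fold of 76.4, a log2 difference of 4.59 ± 0.16 and an adjusted p of 4.9e-11. Cdh17, the cadherin of the intestinal epithelium (chr4:11758147-11817895, plus strand), had 11488, 10194 and 11498 counts, against 591, 436 and 397 in parental tumours (23.3-fold, log2 difference 3.60 ± 0.14, adjusted p 1.3e-10). Cdhr2, a protocadherin that links the microvilli of the gut brush border (chr13:54701461-54736662, plus strand), had 3764, 2657 and 3153 counts, against 7.3, 3.5 and 2.2 in parental tumours, which were close to 0 (log2 difference 3.52 ± 0.11, adjusted p 2.5e-11). Apoc2, the apolipoprotein that activates lipoprotein lipase (chr7:19671579-19677941, minus strand), was split as far, with 2720.0, 1893 and 2203 counts against 1.8, 0 and 1.7 in parental tumours (log2 difference 3.20 ± 0.14, adjusted p 4.9e-10). No fold is given for Cdhr2 and Apoc2, since their parental means lay under 10 counts.

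**Figure D1:**
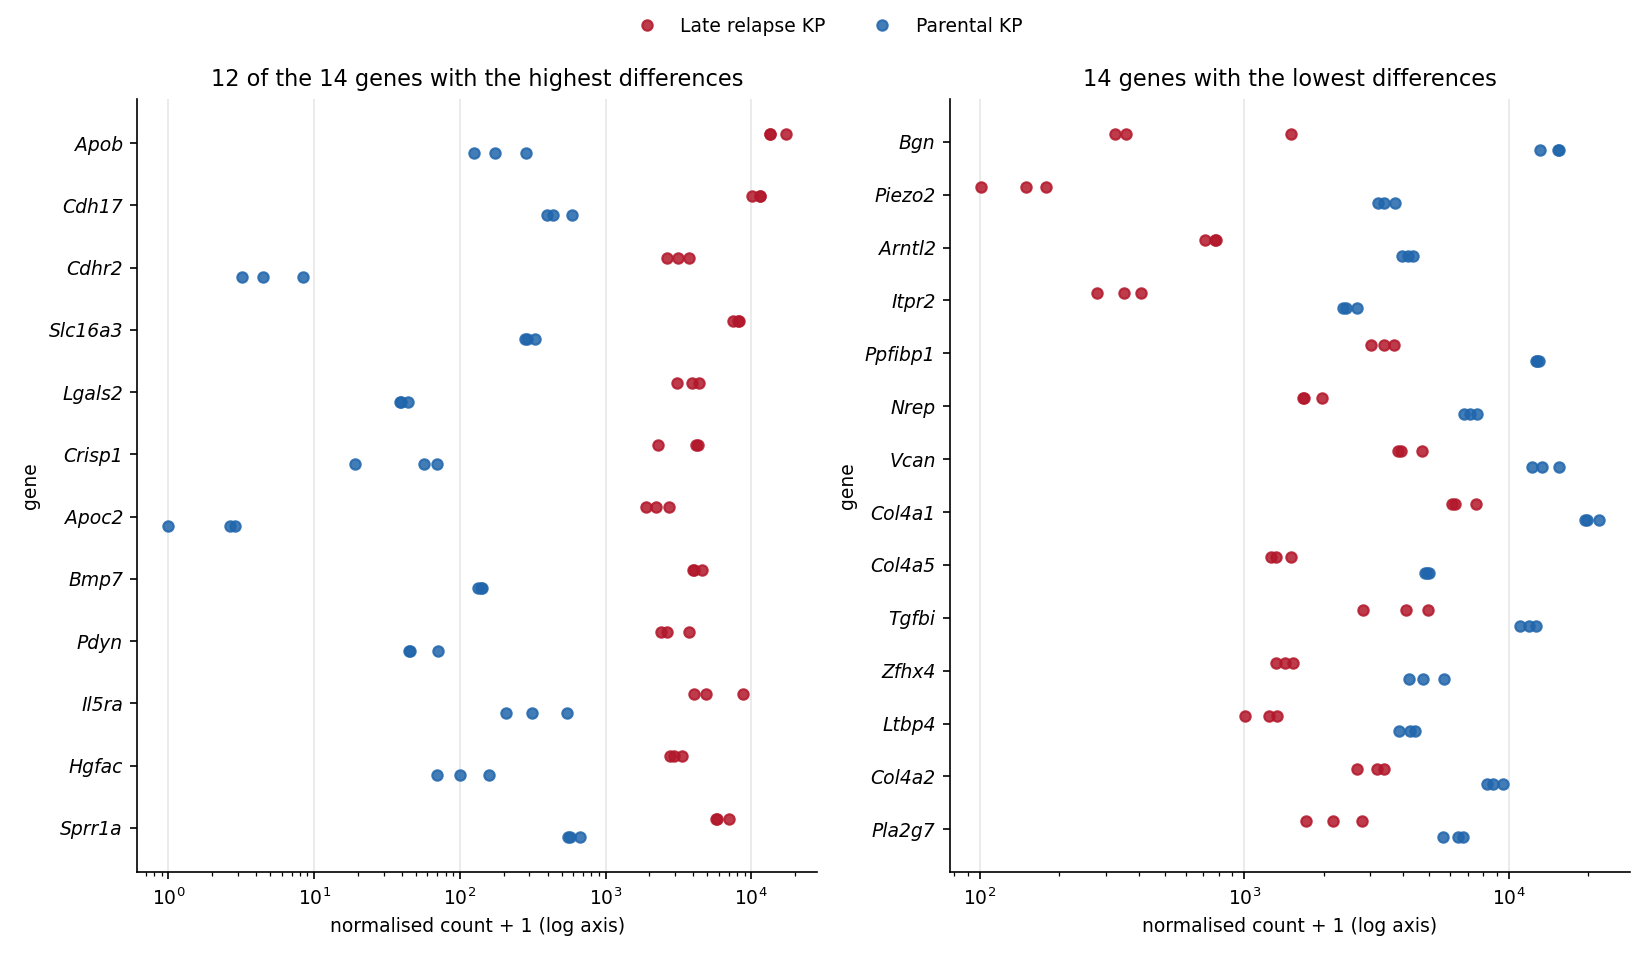
Normalised counts plus 1 on a log axis for 12 of the 14 genes with the highest (left) and the 14 with the lowest (right) log2 differences, with 1 point per sample, Late relapse KP in red above Parental KP in blue. The 26 genes were chosen among called genes without overlap between the groups, and in Bgn late relapse sample 3 lies at 1498 counts, above 355 and 324 in the other late relapse samples.

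The promoters of 3 of these genes are shown because they belong to the leading gut and liver group and hold a motif that lies near the gene start; the 3 were chosen after the matches were seen. Each runs from 250 bases before to 50 bases after the RefSeq start on GRCm38.p6, plus strand, 300 bases, 5′ to 3′. Capitals mark TATAAA in Apob, starting 60 bases before the RefSeq start. They mark the HNF1 motif GTTAATNATT in Cdhr2, starting 54 bases before the RefSeq start, and in Hgfac, starting 8 bases before it. The Apob coordinates given above are from GENCODE, whose start lies upstream of the RefSeq start, so TATAAA lies closer to that start. Hgfac, with 2766, 2968 and 3358 counts in late relapse tumours, against 158, 69 and 99.7 in parental tumours, encodes a liver protease that activates hepatocyte growth factor.
Apob, chr12:7977427-7977726: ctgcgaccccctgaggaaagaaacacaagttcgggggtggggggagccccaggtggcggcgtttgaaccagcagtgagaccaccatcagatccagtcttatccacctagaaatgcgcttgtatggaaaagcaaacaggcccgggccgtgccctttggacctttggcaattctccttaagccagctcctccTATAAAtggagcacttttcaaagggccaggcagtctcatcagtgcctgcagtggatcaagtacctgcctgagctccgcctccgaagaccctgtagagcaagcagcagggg
Cdhr2, chr13:54701213-54701512: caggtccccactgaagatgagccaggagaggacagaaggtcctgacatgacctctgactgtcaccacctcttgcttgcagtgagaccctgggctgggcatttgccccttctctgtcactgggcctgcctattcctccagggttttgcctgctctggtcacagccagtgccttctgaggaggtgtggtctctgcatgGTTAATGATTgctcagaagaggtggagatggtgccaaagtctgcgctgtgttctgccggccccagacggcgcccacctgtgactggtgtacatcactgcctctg
Hgfac, chr5:35041259-35041558: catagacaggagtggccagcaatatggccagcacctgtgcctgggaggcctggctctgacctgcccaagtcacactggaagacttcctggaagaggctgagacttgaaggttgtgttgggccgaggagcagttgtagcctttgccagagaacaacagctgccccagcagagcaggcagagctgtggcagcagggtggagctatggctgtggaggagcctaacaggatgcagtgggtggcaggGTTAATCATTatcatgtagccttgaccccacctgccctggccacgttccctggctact

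Promoters were in the table for 10 of the 14 highest genes and 15 of the 23 kept genes of the gut, gastric and hepatic list, and 16 motifs were searched on both strands. Shares are given over 27025 symbols of the promoter table and over the 8540 kept genes with a promoter. The HNF1 motif GTTAATNATT stood in 2 of the 10 (Cdhr2 and Hgfac) and 1 of the 15 (Afp), against 0.47% of all symbols and 0.258% of kept genes, and the longer HNF1 form GTTAATNATTAA in 0 of either set, against 0.074% and 0.0468%. The HNF4 letters CAAAGTNCA were in 0 of 10 and 0 of 15, against 1.64% and 1.25%, their other order AGTNCAAAG in 0 of both, against 1.5% and 1.28%, and the repeat AGGTCANAGGTCA in 0 of both, against 0.0481% and 0.0468%. TTTATNG, the CDX motif, which can overlap TATAAA, was in 4 of the 10 and 2 of the 15, against 12.5% and 7.9%. TATAAA itself was in 3 and 5, against 15.7% and 8.52%, and the FOXA motif TGTTTAC in 1 and 2, against 4.05% and 3.13%. The STAT motif TTCNNNGAA was in 2 and 0, against 9.55% and 8.24%, the AP-1 motif TGANTCA in 2 and 3, against 8.97% and 6.21%, and the antioxidant element TGACNNNGC in 2 and 1, against 14% and 17%. The ATF4 motif TGATGNAA was in 1 and 1, against 4.51% and 2.63%, the NF-Y motif CCAAT in 3 and 9, against 41.1% and 43.4%, and the E-box CACGTG in 0 and 1, against 8.09% and 12.1%. The sterol element TCACNCCAC was in 0 of both, against 1.44% and 1.32%, and the cyclic AMP element TGACGTCA in 0 of both, against 2.03% and 3.65%. These are matches of letters in a window and show no binding.

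In the gut, gastric and hepatic list 21 of 23 kept members (29 listed) rose and 2 fell, with a median of 0.83. The regulator Hnf4a had 2739, 3130.4 and 3082 counts in late relapse tumours, against 580.0, 249 and 325 in parental tumours (7.76-fold, log2 difference 2.06 ± 0.15, adjusted p 6.7e-08). The 3 late relapse samples lay above the 3 parental samples. A gene-level count cannot tell apart the promoters of Hnf4a. Several stomach genes moved the same way, but Cldn18, a claudin with lung and stomach forms, fell and is given with the lung genes below. Ctse, the aspartic protease cathepsin E of gastric mucosa, had 3001, 4932 and 4370.0 counts, against 977, 549 and 596. Anxa10, an annexin of gastric epithelium, had 6261, 4435 and 5109 counts, against 916, 706 and 667 in parental tumours (log2 difference 2.19 ± 0.15). Tff1 and Gkn2, secreted proteins of surface mucous cells, differed by 1.68 and 1.03, with Tff1 at 849.9, 1646 and 1581 counts in late relapse tumours, against 406, 64 and 72 in parental tumours, where sample 1 was the highest. The intestinal proteins Vil1, an actin bundler of microvilli, and Lgals4, a galectin, stood at 864, 992 and 1149 and 2030.5, 3379 and 3370.5 counts, against 196, 169 and 122 and 1109, 542 and 694 in parental tumours. The intestinal regulator Cdx2 was called at a low level, with 52, 68 and 53 counts against 22, 36 and 14. Against this direction, Pdx1, a regulator of pancreas and antral stomach, fell to 183, 223 and 184 counts in late relapse tumours, against 375, 429 and 379 in parental tumours (log2 difference -0.44 ± 0.04), and Sox9, a progenitor factor, fell too (log2 difference -0.43). The liver genes Alb, Ttr and Apoa1 did not pass the filter. The summed level of the list ranged over 1223 to 1416 CPM in late relapse tumours and 309 to 421 in parental tumours.

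Further gut and liver proteins outside the list, picked after their values were seen, stood high as well. The vitamin D carrier Gc had 599, 934 and 1273 counts, against 16, 27 and 7.4 in parental tumours. The zinc importer Slc39a4 had 2089, 2132 and 2379 counts, against 209, 103 and 124. Pigr, which carries antibodies across epithelia, had 961, 938 and 1164 counts, against 84, 28 and 24. All 3 genes showed no overlap between the groups.

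Genes that hold epithelia together mostly rose. Of 23 kept epithelial junction and keratin genes 17 rose and 0 fell, with a median of 0.40. Cldn2, a claudin of leaky epithelia, had 3894, 5028 and 5226 counts, against 1254, 689.7 and 843 in parental tumours (5.08-fold). Epcam, an epithelial adhesion molecule, had 1981, 2908 and 2907 counts, against 635, 725 and 914, and Krt20, a keratin of gut and bladder surface cells, had 12078, 11315 and 10675, against 4945, 4409.9 and 4309.9. Cdh1, which encodes E-cadherin, had 6212, 7665 and 7337 counts, against 4494, 3288 and 3631 in parental tumours (log2 difference 0.81 ± 0.11, adjusted p 2.4e-05). In the EMT list 11 of 24 kept genes fell and 4 rose, median -0.17. Zeb2 and Zeb1, repressors of epithelial genes, differed by -0.77 and -0.37, Fn1, the gene of fibronectin, by -0.74, and Vim, the mesenchymal filament protein vimentin, was not called at -0.10. Without late relapse sample 3 the EMT list had 14 lower and 3 higher.

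Lung genes showed no common direction, with 3 of 8 kept members higher and 3 lower. Cldn18, a claudin with lung and stomach forms, fell to 27, 13 and 6.0 counts in late relapse tumours, against 888, 1017 and 619 in parental tumours (log2 difference -1.90 ± 0.11). Muc1, a membrane mucin, had 1143, 1773 and 2030.0 counts, against 502, 232 and 288, and Foxa2, a foregut regulator, rose too (log2 difference 0.76). Of the surfactant genes in the table only Sftpd, which was not called, passed the filter on low values.

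**Figure D2:**
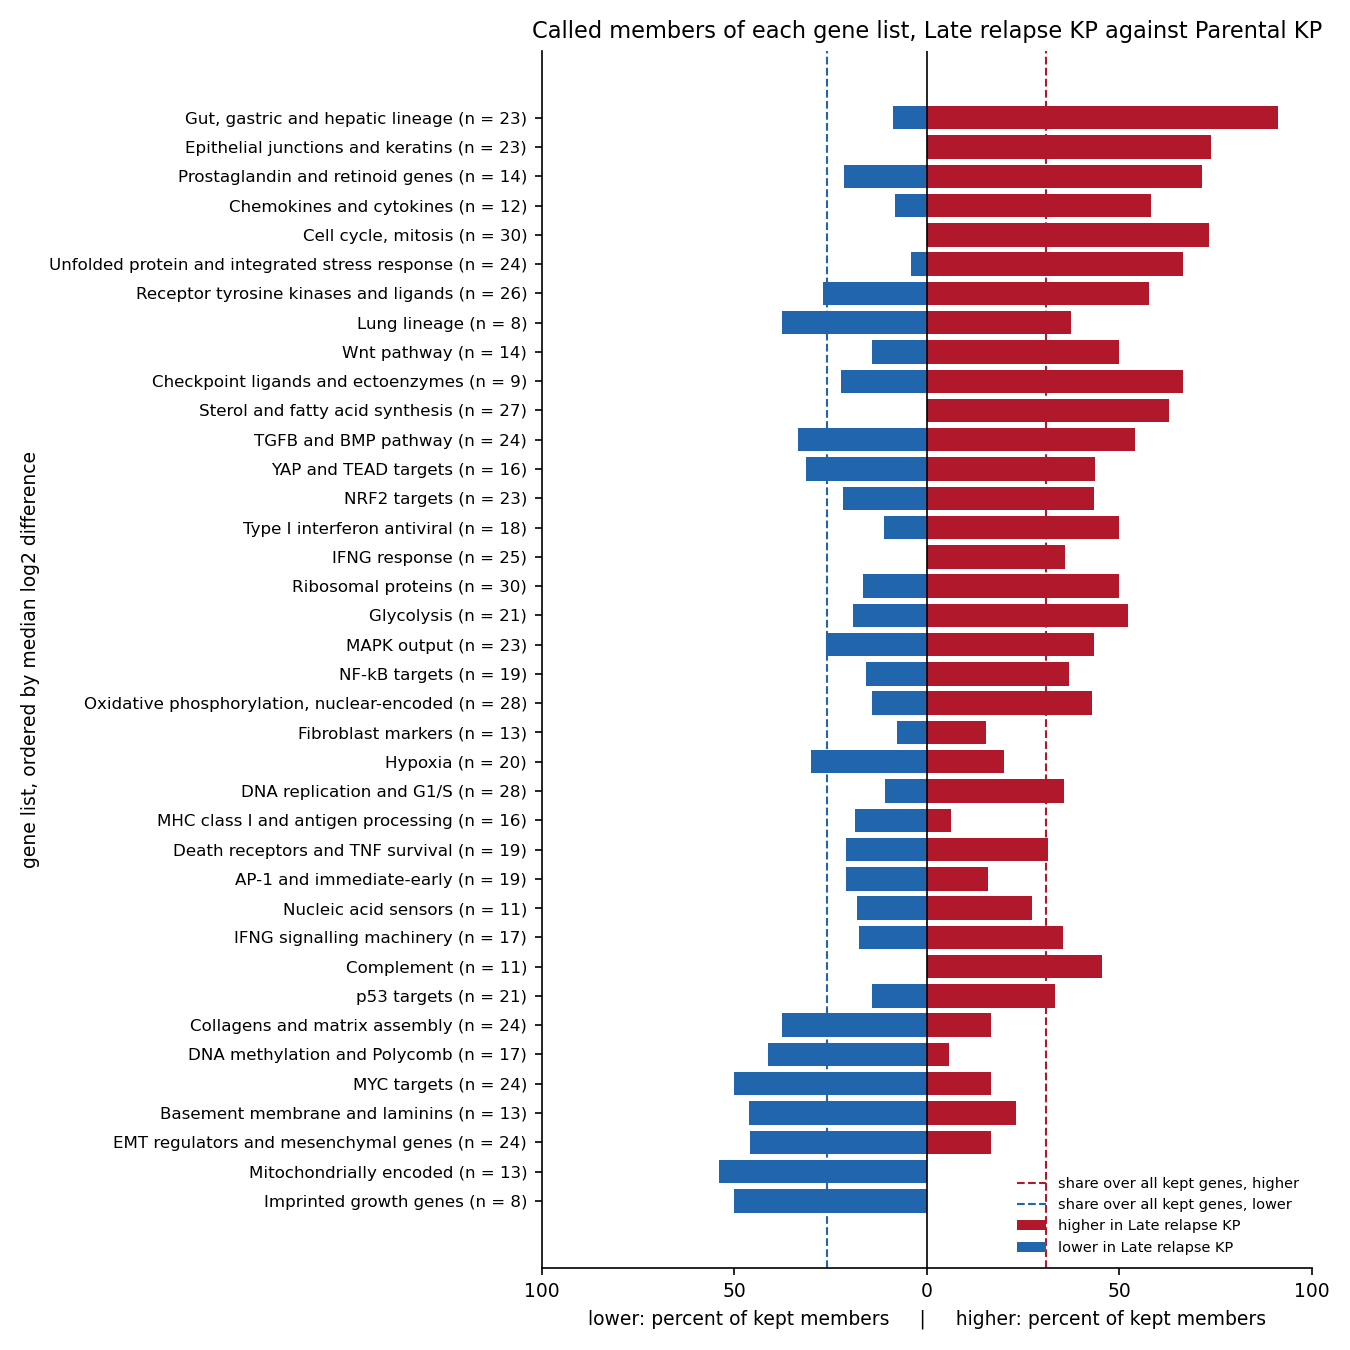
Percent of kept members of each gene list that were called higher (red, right) or lower (blue, left) in Late relapse KP, with lists ordered by median log2 difference from the highest at the top and dashed lines at 31.0% and 25.9%, the shares over all kept genes. The gut, gastric and hepatic list stands at the top with 21 of 23 higher, and imprinted growth genes at the foot with 4 of 8 lower.

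Several leading genes act in metabolism. Slc16a3, the exporter of lactate (chr11:120948480-120960868, plus strand), had 8253, 7465 and 8128 counts, against 326, 281 and 289.5 in parental tumours (26.6-fold, log2 difference 3.47 ± 0.11, adjusted p 2.6e-11). In the glycolysis list it was the largest of 11 rises among 21 kept genes, 4 of which fell (median 0.13); the lactate-forming enzyme Ldha had 26320.4, 25675 and 27255 counts, against 18118, 18884 and 17614. In the sterol and fatty acid list 17 of 27 rose and 0 fell, median 0.21. Cyp51, a demethylase of cholesterol synthesis, had 3995, 4078 and 4467 counts, against 2141, 1748 and 1646, and Fasn, the fatty acid synthase, had 11364, 10047 and 10199, against 7999.9, 7786 and 7906. Among NRF2 targets 10 of 23 rose and 5 fell. Slc7a11, the cystine importer, had 2081, 1343 and 1317 counts, against 227, 190.5 and 165 (8.13-fold), whereas Hmox1, a haem-degrading enzyme, fell to 733, 762 and 997, against 1302, 1391 and 1778. In the unfolded protein and integrated stress list 16 of 24 rose and 1, Hyou1, fell (11 and 1 without late relapse sample 3). The first enzyme of serine synthesis, Phgdh, had 13212, 11162 and 11894 counts, against 4837, 5304 and 4609.6 in parental tumours (log2 difference 1.21 ± 0.07), while Atf4, the factor of the integrated stress response, was at 0.01 and not called. Vitamin A and prostaglandin genes showed 10 of 14 higher and 3 lower: Aldh1a3, which makes retinoic acid, had 4623, 5291 and 6080.1 counts, against 1776, 1679 and 1555; Ptges, the prostaglandin E synthase, had 6995, 6733 and 7674, against 3104, 3168 and 3120.4; the retinoic acid receptor Rarg fell (log2 difference -0.85).

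Growth genes were split. Of 30 mitosis genes, all kept, 22 rose and 0 fell, with a median of 0.28. Mki67, the proliferation antigen, had 5148, 4765 and 4519.7 counts, against 3685, 3741 and 3219, and Aurka, a spindle kinase, 923, 828 and 793, against 441, 389 and 433. MYC targets went the other way with 12 of 24 lower and 4 higher, median -0.14, led by the ribosome-assembly gene Wdr43 (2222, 1856 and 1484 counts, against 3341, 3202 and 3494). The number lower ranged from 8 to 14 over the alternatives that kept the same genes. The summed level of the MYC list overlapped, at 3564 to 4306 CPM in late relapse tumours and 3650 to 3845 in parental tumours. Mitochondrially encoded genes showed 7 of 13 lower and 0 higher, with mt-Cytb at 17555, 15508 and 13079 counts, against 23135, 22499 and 22226. In the p53 target list 7 of 21 rose, close to the 31.0% over all kept genes, and 3 fell, below the 25.9%. Pmaip1, which encodes the death protein NOXA, had 1278, 1279 and 1629 counts, against 298, 299 and 265.

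Further lists are given by their counts, to be read against 31.0% higher and 25.9% lower over all kept genes. Of 23 kept MAPK output genes 10 rose and 6 fell, with Spry1, a feedback inhibitor, at 468, 746 and 496 counts, against 38, 42 and 65 in parental tumours. Of 16 YAP and TEAD targets 7 rose and 5 fell, with F3, which encodes tissue factor, at 3778, 3501 and 3245 counts, against 485, 417 and 382. Ccn2, a matricellular target of YAP, had 5761, 8480.2 and 9635 counts, against 3032, 1623 and 2918 in parental tumours. Among Wnt genes 7 of 14 rose and 2 fell, and Dkk2, a secreted Wnt antagonist, fell to 997, 1089 and 1015 counts, against 2564, 2884 and 2187. In the hypoxia list 4 of 20 rose and 6 fell, where Hif1a, the hypoxia-inducible factor, fell to 6895, 5676 and 6391 counts, against 11460.1, 12137 and 11499, and Ero1l, an oxidase of the endoplasmic reticulum, rose to 12059, 10404 and 14869, against 5766, 5027 and 5824. Of 19 NF-kB targets 7 rose and 3 fell, of 19 death receptor and TNF genes 6 rose and 4 fell, and of 19 AP-1 and immediate-early genes 3 rose and 4 fell. Birc3, an inhibitor of apoptosis, had 307, 241 and 340.5 counts, against 88, 105 and 91, and Gsdmd, the pore protein of pyroptosis, 961, 975 and 1130.0, against 468, 489 and 474. The heat shock genes Hspa1a and Hspa1b, which are close copies, differed by -0.89 and -1.16. Of 28 DNA replication genes 10 rose and 3 fell, of 30 ribosomal protein genes 15 rose and 5 fell, and of 28 nuclear-encoded respiratory chain genes 12 rose and 4 fell. In the list of nucleic acid sensors 3 of 11 rose and 2 fell, with Aim2, a DNA sensor, at 1697, 1684 and 1507 counts, against 418, 409 and 687.

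Secreted signals and receptors showed large single-gene differences. Bmp7, a bone morphogenetic protein (chr2:172868012-172940321, minus strand), had 4068, 3979.6 and 4587 counts in late relapse tumours, against 141, 132 and 139 in parental tumours (30.7-fold, log2 difference 3.07 ± 0.14). Bmp2, a related ligand, had 743, 826 and 878 counts, against 99, 99.7 and 82, and Id2, a textbook target of these ligands, had 2065, 2679 and 3149.8, against 667, 679.7 and 762. On the TGFB side the receptor Tgfbr1 fell to 1214, 1208 and 1322 counts, against 2519.5, 2427 and 2292, and the induced matrix protein Tgfbi to 4073, 4949 and 2808, against 11903, 12694 and 11015 (log2 difference -1.49 ± 0.15). In the joint TGFB and BMP list 13 of 24 rose and 8 fell. In the list of receptor tyrosine kinases and ligands 15 of 26 rose and 7 fell. Egfr, the EGF receptor, had 2032, 1468 and 2413 counts, against 552, 1044 and 648; its ligand Areg had 3626, 3174 and 2369, against 801, 976 and 1539; Ddr2, a collagen receptor, had 1634, 1682 and 1322, against 248, 337 and 236; Fgfr1, a fibroblast growth factor receptor, fell to 2503, 2534 and 2473, against 5483, 4575 and 6807. Pdyn, the precursor of dynorphin opioid peptides (chr2:129686565-129699844, minus strand), had 3714, 2413 and 2631 counts, against 70.3, 44 and 44 (log2 difference 2.96 ± 0.12). Il5ra, the receptor chain for interleukin 5 (chr6:106710357-106749037, minus strand), had 8728, 4889 and 4040.4 counts, against 311, 543 and 205, with late relapse above parental in 3 of 3 samples.  Crisp1, a secreted cysteine-rich protein (chr17:40293758-40319207, minus strand), had 2290.0, 4319 and 4174 counts, against 69, 56 and 18, and Sprr1a, a cornified envelope protein, 5691, 5832 and 7066, against 665, 554 and 565 (10.4-fold). Lgals2, a galectin (chr15:78850860-78855529, minus strand), had 4350.0, 3106 and 3914 counts, against 38, 43 and 38 (95.3-fold).

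The lowest difference was in a matrix gene. Bgn, the small proteoglycan biglycan (chrX:73483602-73495933, plus strand), had 355, 324 and 1498 counts in late relapse tumours, against 15336, 13175 and 15448 in parental tumours. Its log2 difference was -3.78 ± 0.26 (adjusted p 3.9e-08), and -4.22 without late relapse sample 3. All 6 chains of type IV collagen fell. Col4a1 had 6077, 7492 and 6247 counts, against 19776, 19378 and 21911 (log2 difference -1.55 ± 0.07, adjusted p 9.8e-10; -1.51 without late relapse sample 3), and Col4a2, 2668, 3373 and 3179, against 8694, 8279 and 9485. Col4a5 had 1263, 1498 and 1312 counts, against 4984, 4921 and 4828, and Col4a6, picked after its value was seen, fell as well (log2 difference -1.36). Col4a3 and Col4a4 were lower in level and differed by -0.96 and -0.67. The laminin chain Lamc1 fell to 4935, 4963 and 5092 counts, against 10549.9, 10803 and 11791, but Lama3, a chain of epithelial laminin, had 2021, 1959 and 1975, against 246, 115 and 161 (log2 difference 2.05 ± 0.14). In the basement membrane list 6 of 13 fell and 3 rose. In the collagen list 9 of 24 fell and 4 rose, median -0.06, and 11 fell and 3 rose without late relapse sample 3. The summed level of this list was 3085 to 5591 CPM in late relapse tumours and 5248 to 5888 in parental tumours. Fibroblast markers gave 2 higher and 1 lower of 13, and 0 higher and 4 lower without late relapse sample 3. Vcan, the proteoglycan versican, had 3811, 4715 and 3926 counts, against 15442, 12247 and 13401, and Ltbp4, which binds latent TGFB, 1003, 1333 and 1242, against 4226, 3851 and 4425.

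Other genes with large falls were of several kinds. Piezo2, a mechanically gated ion channel, fell to 149, 100.2 and 178 counts, against 3384, 3211 and 3717 in parental tumours (log2 difference -2.80 ± 0.10, adjusted p 6.1e-11). Nrep, a neuronal regeneration protein, had 1686, 1970.0 and 1660.2 counts, against 6746, 7123 and 7580.3; Zfhx4, a zinc finger factor, 1421, 1320.0 and 1528, against 5692, 4210.0 and 4745; Pla2g7, the platelet-activating factor hydrolase, 2156, 2785 and 1707, against 6444, 6731 and 5622. Xist, the RNA of X inactivation, fell to 12884, 10540.2 and 14199 counts, against 29022, 24714 and 31809.6. Of 8 kept imprinted genes 4 fell and 0 rose, with Igf2r, a receptor that clears IGF2, at 3153, 3256 and 3785 counts, against 9125, 8153 and 8294. In the DNA methylation and Polycomb list 7 of 17 fell and 1 rose, including the methyltransferase Dnmt3a (-0.66) and the dioxygenase Tet3 (-0.66). Nnat, an imprinted proteolipid picked after its value was seen, was nearly absent at 3.1, 1.2 and 0 counts, against 887, 994 and 667 in parental tumours.

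Interferon and antigen presentation genes are given in the order of the pathway. The signalling machinery showed 6 of 17 kept genes higher and 3 lower, median -0.01, against 31.0% higher and 25.9% lower over all kept genes. Its median turned positive with chromosome medians taken off (0.0023), no filter (0.033) and the stricter filter (0.21). The same held without late relapse sample 1 (0.016) or sample 2 (0.052). Ifngr1 and Ifngr2, the receptor chains, differed by 0.21 and 0.31, and each call was lost in some alternatives. Jak1 and Jak2, the receptor kinases, rose by 0.23 and 0.22, and Irf1, an interferon-induced transcription factor, fell (log2 difference -0.22), a call that was lost without parental sample 2. Among 25 kept IFNG response genes of 40 listed, 9 rose and 0 fell, median 0.16; under quantile normalisation 8 rose and 3 fell, median 0.01, and with chromosome medians taken off 8 rose and 4 fell. Ifi47, an interferon-induced GTPase, had 259, 334 and 355 counts, against 92, 69.6 and 47, and Casp1, an inflammatory protease, 119, 140.0 and 125, against 3.9, 20.4 and 17. Type I interferon genes gave 9 higher and 2 lower of 18, with Samd9l, an antiviral factor, at 1168, 1778 and 1722 counts, against 418, 382 and 259. In antigen processing 1 of 16 rose and 3 fell, but 5 rose and 1 fell with chromosome medians taken off. H2-K1, a class I heavy chain, had 3017, 3371 and 3626 counts, against 563, 962 and 951 in parental tumours (4.04-fold, log2 difference 1.55 ± 0.17, adjusted p 4.2e-06), while H2-Q10, a class I gene, fell to 19.9, 16 and 18, against 311, 447 and 301. B2m, H2-D1 and Tap1 were not called, at -0.13, 0.29 and 0.04, but H2-D1 was called higher in 3 alternatives, at 0.51 with chromosome medians taken off. Counts of H2 genes are uncertain because several are close copies that share reads. Socs1, Nlrc5, Cd274 and Cxcl10 did not pass the filter, and Cd274, which encodes PD-L1, had 86, 82 and 79 counts, against 32, 39 and 34 in parental tumours, with no test. Of the checkpoint ligands and ectoenzymes 6 of 9 rose and 2 fell, with Lgals9, a galectin, at 553, 795 and 730.0 counts, against 161, 108 and 108, and the ligand Cd276 lower at 1053, 1074 and 1172, against 1792, 1817 and 1749. In the chemokine and cytokine list 7 of 12 rose and 1 fell; Cxcl5, which attracts neutrophils, had 596, 611 and 645 counts, against 108, 108 and 92. Complement genes showed 5 of 11 higher and 0 lower, with a median of -0.02 that was 0.20 with chromosome medians taken off; without late relapse sample 3 there were 5 higher and 3 lower, with a median of -0.10. Factor B (Cfb) rose to 1928, 2524 and 2822 counts, against 492, 372 and 359.8.

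Host cell markers were mostly low and many had higher means in late relapse tumours. Of 10 macrophage markers 8 had a higher mean in late relapse tumours, and in 3 of them (Mrc1, C1qa and Cd68) the groups did not overlap. Such a split was common, as 6105 of the 11193 kept genes were called without overlap. C1qa and Cd68 did not pass the filter and were not tested. Mrc1, the mannose receptor of macrophages and some endothelium, had 6259.5, 4043 and 5291 counts in late relapse tumours, against 1487, 1940.0 and 1462 in parental tumours. Cd68, a lysosomal macrophage protein, had 116, 94 and 140.3 counts, against 78, 66 and 77, and C1qa, a complement chain made by macrophages, 32, 26 and 36, against 22, 16 and 21. The macrophage marker Adgre1 stood at 11, 7.2 and 7.9 counts, against 3.8, 7.3 and 8.8, near 0 in both, and Csf1r, the macrophage growth factor receptor, at 49, 42 and 57, against 17, 49 and 24. Mrc1 and Lyz2 were the kept macrophage markers, and Lyz2, a lysozyme, was not called. The summed level of the list was 184 to 303 CPM in late relapse tumours and 74.1 to 104 CPM in parental tumours, and 16.2 to 31.0 CPM against 11.4 to 18.3 CPM without Mrc1. Of 8 neutrophil markers, none of them kept, 6 had a higher mean in late relapse tumours, and the sums were 6.13 to 9.70 CPM against 3.03 to 6.33 CPM. Cd53, a leukocyte tetraspanin, had 2719.9, 2708 and 2322 counts, against 1723, 2108 and 1989, and its call was lost in 5 alternatives. The other leukocyte markers summed to 5.14 to 10.4 CPM in late relapse tumours, against 8.28 to 22.2 CPM in parental tumours. Of the 8 leukocyte markers, Cd53 among them, 3 had a higher mean in late relapse tumours. Flt1, a VEGF receptor of endothelium, had 5784, 5655 and 6070.2 counts, against 3449.5, 3627 and 3499, and 4 of 10 endothelial markers had a higher mean in late relapse tumours. Among them Cdh5, the cadherin of endothelium, had 39, 38 and 35 counts, against 22, 18 and 3.0, while Pecam1, which also marks endothelium, had 32, 18 and 19, against 21, 31 and 21. The endothelial list summed to 242 to 262 CPM in late relapse tumours and 154 to 171 CPM in parental tumours, and to 6.87 to 10.2 CPM against 5.69 to 11.5 CPM without Flt1. Rgs5, a pericyte marker, averaged 50.0 ± 10.8 counts in late relapse tumours, against 21.4 ± 3.9 in parental tumours (SD, n = 3 each), without overlap. Of 8 pericyte markers 7 had a higher mean in late relapse tumours, with 2 wholly above and 1 wholly below the parental samples. Among the 3 kept, 1 was called higher and 1 lower. The pericyte sums overlapped, at 13.5 to 29.4 CPM against 15.7 to 22.5 CPM. The part of host cells in these results was not tested.

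Set beside the other KP groups, late relapse differed from 1st relapse in 5380 genes (48.1%), from 2nd relapse in 6148 (54.9%) and from Chronic IFNG in 5642 (50.4%). Pdyn stood at 3714, 2413 and 2631 counts in late relapse, against 195, 61 and 117 in 1st relapse, 338, 287 and 317 in 2nd relapse and 22, 32 and 19.8 in Chronic IFNG tumours. Late relapse was higher than each by 2.66, 2.13 and 3.15 (adjusted p 2e-09, 4.7e-09 and 4.2e-10). Crisp1 was likewise higher in late relapse than in each of these groups, by 3.03, 1.87 and 2.96. Apob was high in late relapse and 1st relapse (10099.8, 9793 and 7954) but low in 2nd relapse (242, 312 and 322), and the late relapse excess over 2nd relapse was 4.33. Lgals2 was highest in 2nd relapse (21701, 22830.4 and 26705), so late relapse lay lower by a difference of -2.49. Il5ra and Slc7a11 were high in late and 2nd relapse, with Il5ra at 9471, 10512 and 11196 counts in 2nd relapse and 517, 576 and 446 in 1st relapse, and Slc7a11 at 1267, 1669 and 1617 in 2nd relapse and 362, 225 and 269.8 in 1st relapse. Hnf4a stood at 3355, 3033 and 3113 in 1st relapse, 4062, 4512 and 4550.2 in 2nd relapse and 2575, 1462 and 2137 in Chronic IFNG tumours, so these groups too lay above the parental samples. Late relapse minus 1st relapse was -0.07 for Hnf4a (adjusted p 0.7). The summed gut, gastric and hepatic list was 1223 to 1416 CPM in late relapse and 2025 to 2294 in 1st relapse. It was 1267 to 1302 CPM in 2nd relapse and 974 to 1642 in Chronic IFNG tumours. For the epithelial junction and keratin list, the median of late relapse minus 1st relapse, 2nd relapse and Chronic IFNG was -0.49, -0.55 and -0.18. Piezo2 and Col4a1 were lowest in late relapse, with Piezo2 differences of -1.64, -2.13 and -1.66 and Col4a1 differences of -0.60, -0.77 and -1.16 from 1st relapse, 2nd relapse and Chronic IFNG (adjusted p 2.6e-08, 4.8e-10 and 1.7e-08 for Piezo2, and 2e-05, 6.5e-07 and 3.3e-08 for Col4a1). Col4a5, by contrast, was lower still in 2nd relapse (897, 938 and 833). Bgn was low in late and 1st relapse (1164, 1738 and 1182) and higher in 2nd relapse (5938, 6709 and 6884). Tnc, a matrix protein not called against parental tumours, had 14918, 14618 and 19928 counts in late relapse, against 318, 428 and 482 in 2nd relapse (log2 difference 4.25). Sparc was likewise not called against parental tumours, but was called lower in 4 alternatives, at -0.38 without late relapse sample 3 and -0.39 with chromosome medians taken off. It had 13717, 13161 and 17739.6 counts in late relapse, against 344, 404 and 419 in 2nd relapse. Dmbt1, a mucosal glycoprotein, had 25612, 36858 and 48074 counts in late relapse, against 114426, 102527 and 127899 in 1st relapse. Tm4sf4, a tetraspan protein of liver and gut, had 140.0, 163 and 171 counts in late relapse, against 6818, 5859 and 5214 in 2nd relapse. Rnu1b1, a small nuclear RNA with near-identical copies, had 3544, 2777 and 4906 counts in late relapse, against 296, 239 and 183 in 1st relapse.

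**Figure D3:**
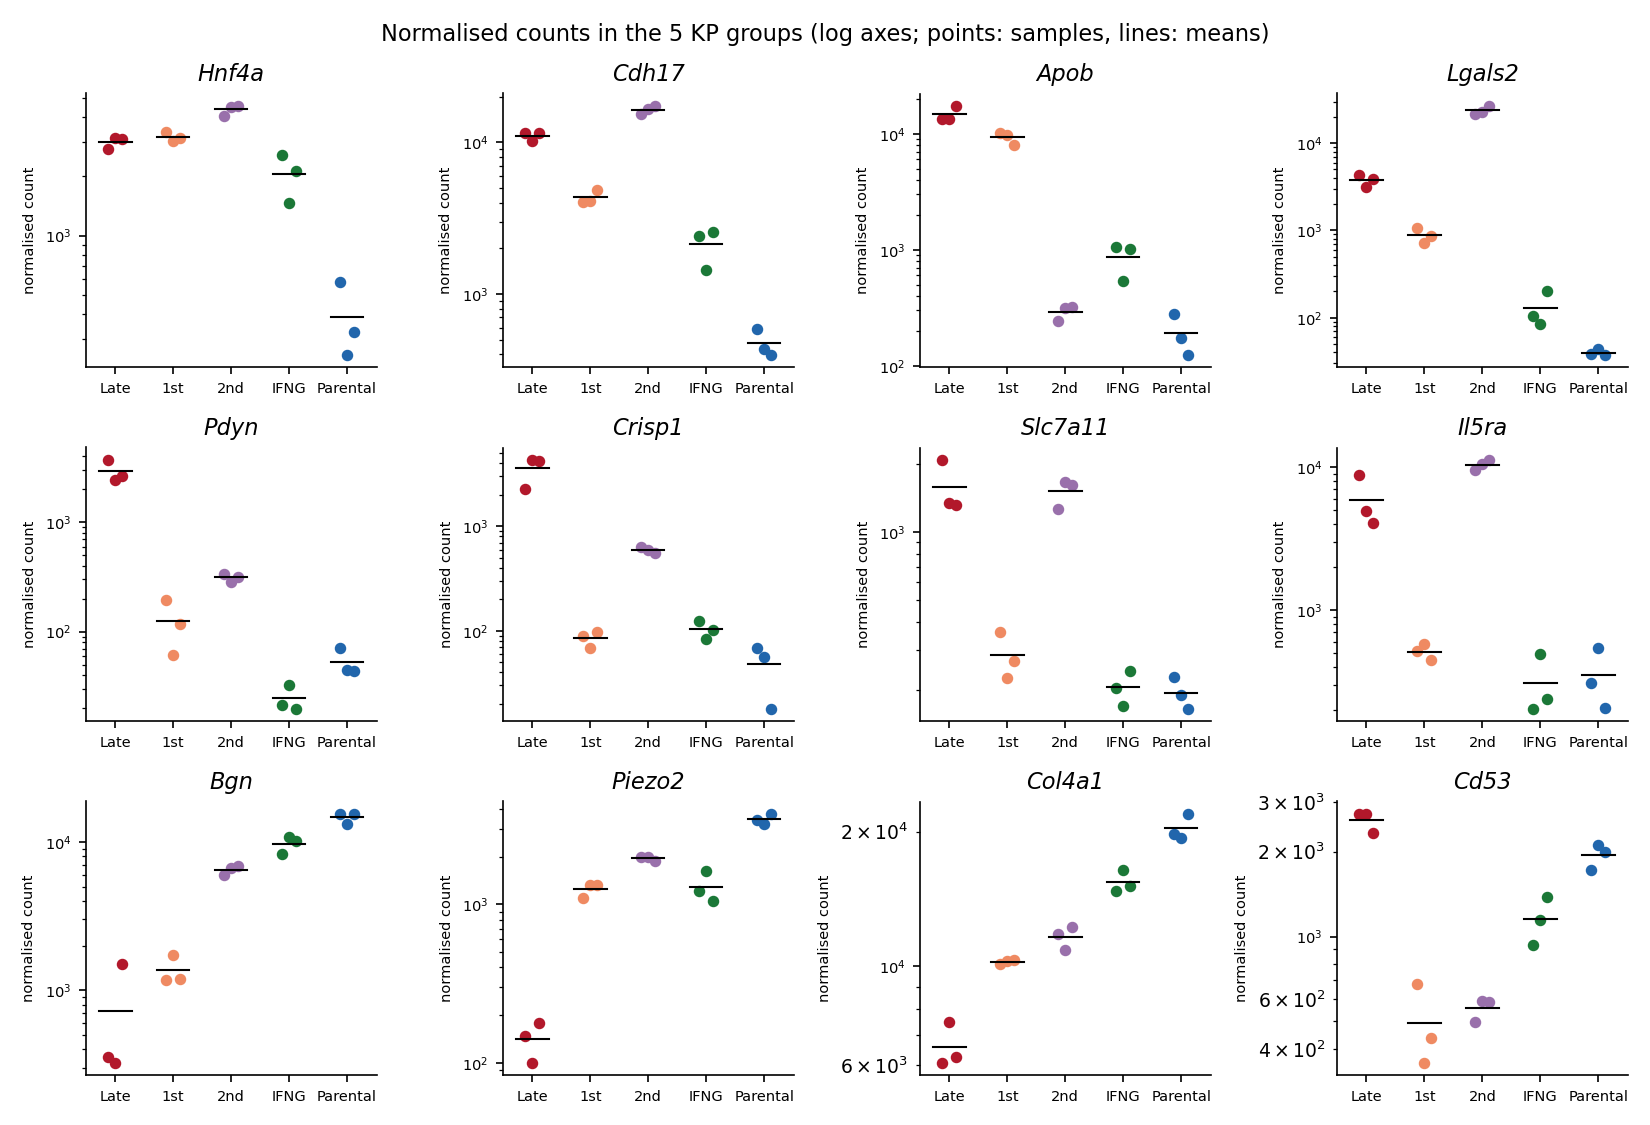
Normalised counts on log axes for 12 genes in the 5 KP groups, with Late relapse KP at the left and Parental KP at the right of each panel, points for samples and lines for means. Pdyn and Crisp1 stand highest in late relapse, Apob in late and 1st relapse, Il5ra and Slc7a11 in late and 2nd relapse, and Piezo2 and Col4a1 lowest in late relapse.

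Differences also followed chromosomes. On chromosome 11, 51.4% of kept genes were higher and 8.1% lower, with a median of 0.16, and chromosomes 5, 3 and 18 had medians of 0.14, 0.14 and 0.13. On chromosome 13, 9.1% were higher and 62.0% lower, with a median of -0.24, and chromosomes 17 and X had medians of -0.21 and -0.18. In each of these chromosomes the 3 late relapse samples lay on the same side of the parental mean. Over 11036 overlapping runs of 8 neighbouring kept genes, the lowest median, -1.14, was on chromosome 6 from 146108299 to 147032025, where all 8 genes from Itpr2 to Ppfibp1 were called lower. Itpr2, a calcium channel of the endoplasmic reticulum, had 406, 277 and 350.0 counts, against 2361, 2426 and 2658 (log2 difference -1.89 ± 0.08). Arntl2, a clock factor, had 708, 777 and 778 counts, against 4360.4, 4163 and 3959.9, and Ppfibp1, a liprin scaffold, 3673, 3012 and 3370.1, against 12832, 12971 and 12655. Itpr2 had 823, 764 and 833 counts in 1st relapse, 426, 493 and 402 in 2nd relapse and 1670.5, 2033 and 1566 in Chronic IFNG tumours, and late relapse was not called against 2nd relapse (log2 difference -0.18, adjusted p 0.061). On chromosome 9, from 3000922 to 3035805, a run of 8 predicted genes was higher with a median of 1.65, and their counts are uncertain, since these copies are nearly identical. A role of DNA copy number was not tested.

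**Figure D4:**
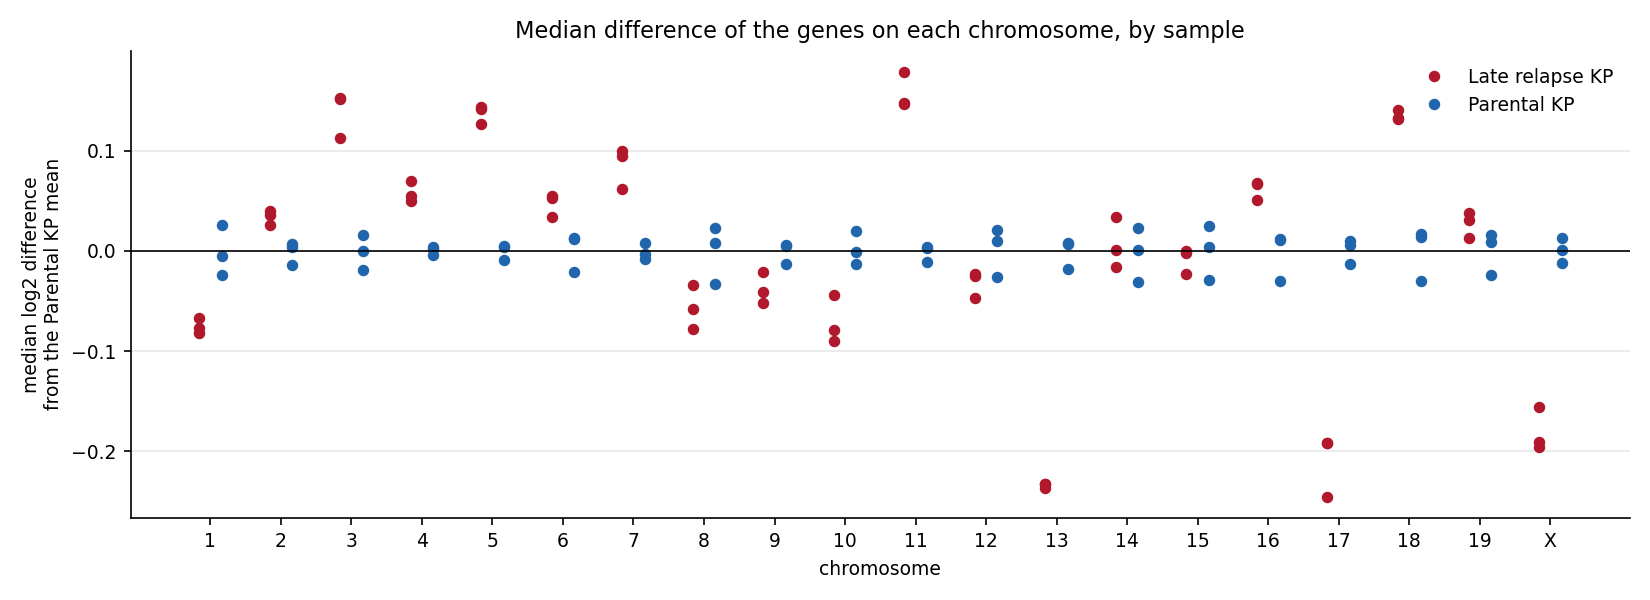
Median log2 difference of the kept genes on each chromosome from the Parental KP mean, with 1 point per sample, Late relapse KP in red left of Parental KP in blue. The late relapse points lie above 0 on chromosomes 3, 5, 11 and 18 and below 0 on chromosomes 13, 17 and X.

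**Figure D5:**
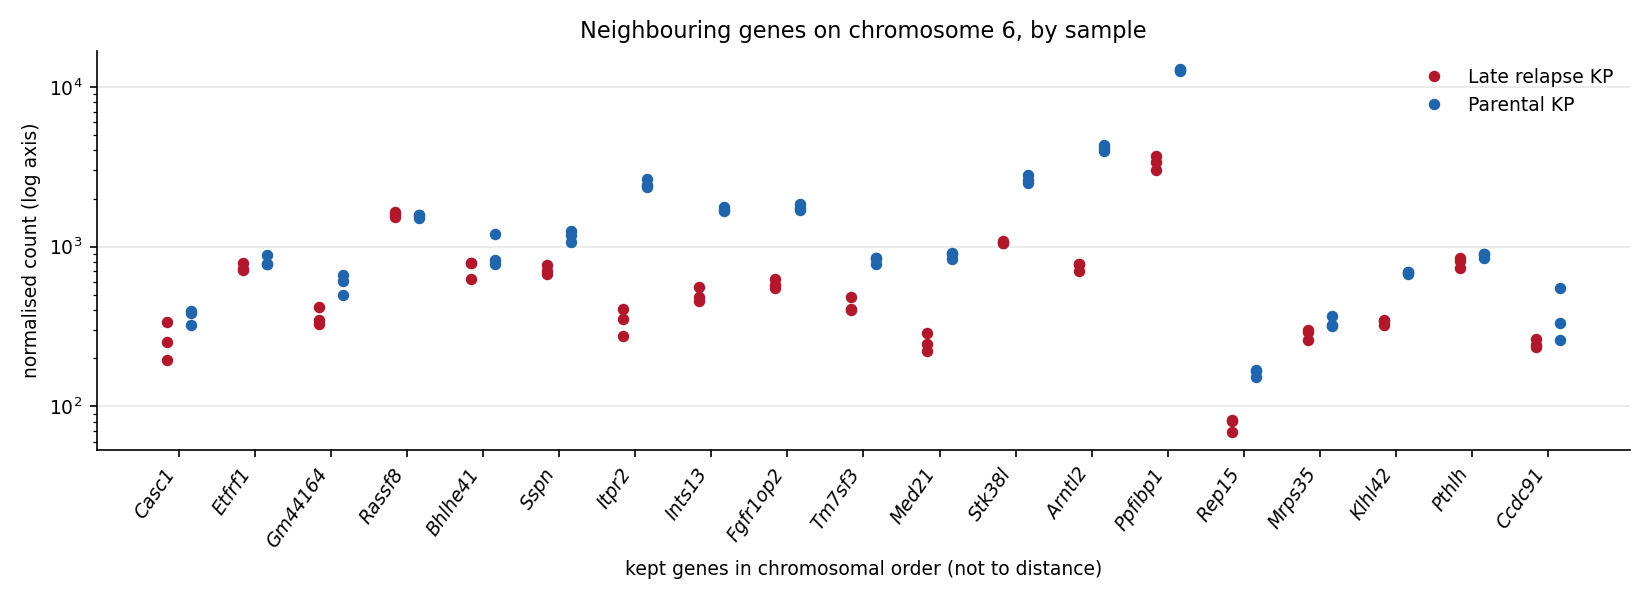
Normalised counts on a log axis of neighbouring kept genes on chromosome 6 in chromosomal order, not to distance, with 1 point per sample, Late relapse KP in red left of Parental KP in blue. From Itpr2 to Ppfibp1 the late relapse samples lie below the parental samples in each of the 8 genes.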

How the data were processed

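Libraries were stranded total RNA, sequenced paired-end, per the labels' protocols. Cutadapt 2.9, Salmon 1.8.0, DESeq2 1.34.0 and the GRCm38/mm10 build are listed, without roles, in the submitters' processing notes. The deposited KP table holds log2 values that the authors had variance-stabilised, read from its title and its values. The lowest value, 8.17, was taken as a count of 0 and the transformation inverted to normalised counts; 72.9% to 79.3% of low values then fell within 0.15 of a whole read, against 30% by chance. Symbols and coordinates came from GENCODE vM21 (85 identifiers unmatched). The filter kept 31.1% of genes and 99.0% of counts. All 5 KP groups entered 1 limma 3.58.1 fit (R 4.3.3) with an intensity trend and 10 residual degrees of freedom. An exact test of 3 against 3 samples reaches 0.1 at the lowest, and the p-values given therefore depend on the variance model of limma. The median chi-square between replicates was 1.58 to 2.82, against 0.455 from counting alone. Figures used Python 3.11.15 and matplotlib 3.10.9.

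Named genes were the 14 highest and 14 lowest called differences without overlap whose mean was 3 log2 units above the lowest value in 1 of the 2 groups, leaving out predicted genes, up to 4 members of each list, 16 fixed genes, and 4 highest and 4 lowest against each other KP group. Genes named beyond this rule, as further list examples or where said, were picked after their values were seen. Some genes met this rule but are left out of the text; list counts still include them. Members and lists were chosen with earlier results of these data known. Alternatives were no filter, a stricter filter, quantile normalisation, median centring, no trend, fits of 2 groups, array weights, back-calculated counts plus 10, the replicate number as a block, a threshold of 1 log2 unit, leaving out each library and, added after the data were seen, chromosome median centring. Promoters came from RefSeq (GRCm38.p6).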

Additional observations from a re-analysis of the deposited data

How the results depend on the processing

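Counts of called genes are given for late relapse against parental, 1st relapse, 2nd relapse and Chronic IFNG tumours in turn. A stricter filter of 3 log2 units, which tests 3347 genes, gave 2197, 1933, 2188 and 2019, and a threshold of 1 log2 unit gave 302, 183, 342 and 174. Leaving out 1 library gave 5612 to 5996, 4617 to 4926, 5496 to 5765 and 5035 to 5228. Same-numbered late relapse and parental samples correlated at 0.07, 0.08 and 0.27 in their deviations, and differently numbered ones at -0.18 to 0.10. The numbers were not taken as pairs because the labels do not say what a replicate number shares. With the replicate number as a block the counts were 6270, 5272, 6050 and 5563. Chromosome median centring gave 5866, 4798, 5451 and 5167.

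Of 194 named genes, 164 kept call and direction in every alternative fit that tested them, at adjusted p below 0.05. Of the 26 alternatives, the threshold of 1 log2 unit is left out of counts of lost or gained single-gene calls, here and above. Called genes with smaller differences, such as Cdh1 (0.81), fall out at that threshold. Genes below the stricter filter were not tested there. Of 176 called, 16 lost the call under at least 1 of the other alternatives and none reversed. Of 18 not called, 9 gained a call under at least 1: Sparc, Trp53, H2-D1, C3, Col1a2, Pi16, Atf3, Bpgm and Anxa13, with C3 at -1.21 without late relapse sample 3. Reversals in direction were in genes not called. With another setting, Prl2c2 came to 0.0069 (array weights) and 0.22 (chromosome centring), Anxa13 to -0.011 and Tap1 to -0.19 (both quantile normalisation). Leaving out 1 library gave -0.11 to 0.10 for Prl2c2, -0.034 to 0.11 for Tap1, -0.025 to 0.14 for Atad2, -0.10 to 0.73 for Col1a1 and -0.33 to 0.060 for Cd74. The cause was not tested. The Postn call was lost in 5 alternatives, among them without late relapse sample 3 (adjusted p 0.141). The median changed sign in 11 of 41 lists. Calls at low counts are limited by depth.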

Other observations

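Genes in no list of the report also stood apart, chosen here after their values were seen. Alox5, the enzyme that starts leukotriene synthesis, had 1673, 910.2 and 1153 counts in late relapse tumours, against 6.7, 1.6 and 1.8 in parental tumours. Krt23, a keratin, had 2856, 2535 and 2879.6 counts, against 256, 186 and 258, and Plac8, a small cysteine-rich protein, 6813, 8413 and 8948, against 1412, 1120.0 and 1119. Agr2, a secretory-pathway disulfide isomerase, had 918, 1609 and 1992 counts, against 127, 50.2 and 48. The collagen-binding integrin chains Itga1 and Itga2 had 1745, 2444 and 2650.4 and 9834, 7728 and 9203 counts, against 255, 163 and 144 and 1972, 2005 and 1368 in parental tumours. Fads1 and Fads2, neighbouring desaturases of polyunsaturated fatty acids, differed by 1.07 and 1.41. Among falls, Hey1, a Notch target, had 234, 248 and 306 counts, against 1515, 1543 and 1601, and Cck, the gut hormone cholecystokinin, 67, 49.6 and 109, against 765, 1022 and 827.

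In 3 genes parental sample 1 stood with the late relapse samples. Prlr, the prolactin receptor, had 15, 56 and 189.7 counts in late relapse tumours, against 177, 2321 and 2856 in parental tumours, Ptn, a heparin-binding growth factor, 3.5, 26 and 138, against 111, 1163 and 1482, and Tmem56 20.2, 24 and 94, against 76, 894 and 854. Fgfr2 had 5.2, 16 and 46 counts, against 52, 752 and 671, and its call was lost without parental sample 2 or 3.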
